A study of Mus musculus with 4 samples.

Results

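The genes described here encode the subunits of the proteasome and the factors that assemble, activate or inhibit it. They were taken from the deposited count table by name: symbols that begin with Psma, Psmb, Psmc, Psmd, Psme, Psmf or Psmg and a digit, without the interacting protein gene Psmc3ip and without pseudogene names, and with at least 40 counts summed over the 4 libraries. Of 35927 gene rows with counts, 49 matched the name pattern, 47 were left after Psmc3ip and the pseudogene Psmb6-ps were set aside, and 46 passed the limit on counts. The limit left out only Psmb11, the thymus-specific subunit gene, with 2 counts in all. The scarcest genes taken in were Psma5 with 54 counts and Psmb5 with 130. All 46 also passed the filter for testing. Psmb9, the remaining inducible subunit gene, was not analysed here.

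The cells were erythroid progenitors from the livers of E13.5 mouse embryos on a C57BL/6 background, sorted by flow cytometry for the transferrin receptor CD71 and against TER119, a surface protein of more mature red cells. The control group was a mixture of Rcor1+/+ and Rcor1+/- embryos, so heterozygotes were among the controls. The mutant group was Rcor1-/-, which lacks intact copies of the gene for the CoREST scaffold of histone-modifying enzymes. Each group had 2 libraries of polyadenylated RNA, and each library was made from pooled samples whose number is not stated, so the spread between libraries is a spread between pools and does not show that between embryos. Library totals ran from 15053229 to 26892375 counts. Counts of Rcor1 itself were 4083 and 3807 for the controls against 2061 and 1240 for the mutants, a log2 fold change of -1.09 ± 0.06 (SE). All 7 genes fixed as erythroid markers were present in every library and lower in the mutant, with a summed level of 4690 to 4830 CPM in controls and 3120 to 3210 CPM in mutants. CPM here is the count scaled to a common library size, from each library's total and its TMM factor. In bulk RNA, fewer cells of a kind and less RNA per cell cannot be told apart.

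The proteasome degrades proteins that carry ubiquitin chains. Its core particle is a barrel of stacked rings: outer rings of alpha subunits form the gate, and inner rings of beta subunits hold the catalytic sites, which in the standard particle are those of Psmb5, Psmb6 and Psmb7. The regulatory particle caps the barrel. Its base holds a ring of ATPases that unfold substrates and its lid removes ubiquitin. Immune cells and cells exposed to interferon replace the catalytic subunits with the inducible ones encoded by Psmb8, Psmb9 and Psmb10, giving the immunoproteasome, which favours peptides that MHC class I can present. Erythroid cells rely on ubiquitin-dependent degradation as they remodel their protein content during maturation.

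As a whole the proteasome genes were slightly lower in the mutant progenitors. Of the 46 genes, 27 were lower, 3 were higher and 16 did not pass at an adjusted p of 0.05 in edgeR's quasi-likelihood test over all 13140 genes tested. The background was 29.2% lower and 28.3% higher, or 57.5% called in either direction, against 58.7% and 6.52% of the proteasome genes. Sizes were small. The median log2 fold change of mutant over control was -0.17, against 0.0095 for all genes, and 42 of the 46 changed by less than 0.5 in either direction (91.3%, against 67.9% of all genes). The single change of 2-fold or more was that of Psmb8, whereas 13.9% of all genes reached that size. In 34 of the 46 (73.9%) the control and mutant libraries did not overlap, close to the background of 77.9%. Together the genes took 1.244% and 1.228% of all counts in the control libraries (95% limits by Wilson's method, 1.239 to 1.248 and 1.223 to 1.232) and 1.145% and 1.158% in the mutant libraries (1.141 to 1.15 and 1.153 to 1.163). Both mutant shares lay below both control shares, with a mean difference of -0.0841 percentage points, against SDs of 0.0111 and 0.00899 between libraries of a group. The intervals cover counting error only.

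The number of calls depended on how the libraries were scaled. When libraries were scaled by their totals alone, 17 of the 27 falls and all 3 rises kept their call, 10 falls were lost and 2 rises were added, so that 17 were lower and 5 higher (background 19.5% and 38.8%). With upper quartile scaling 21 were lower and 3 higher (background 23.5% and 33.7%), and with RLE scaling 28 and 3 (background 29.4% and 28.2%). The split of all called genes moved as well, from 49.3% higher under TMM to 66.6%, and the median of all genes moved from 0.0095 to 0.15. Scaling shifts all genes by about the same amount, so it leaves the distance to other genes unchanged by construction: the median of the proteasome genes differed from that of all genes by -0.18, and 37 of the 46 lay below the latter. In the authors' deposited table, whose median over 13234 genes was 0.15, 15 of the 46 were lower and 4 higher at an FDR of 0.05 (background 17.7% lower and 37.7% higher).

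**Figure D1:**
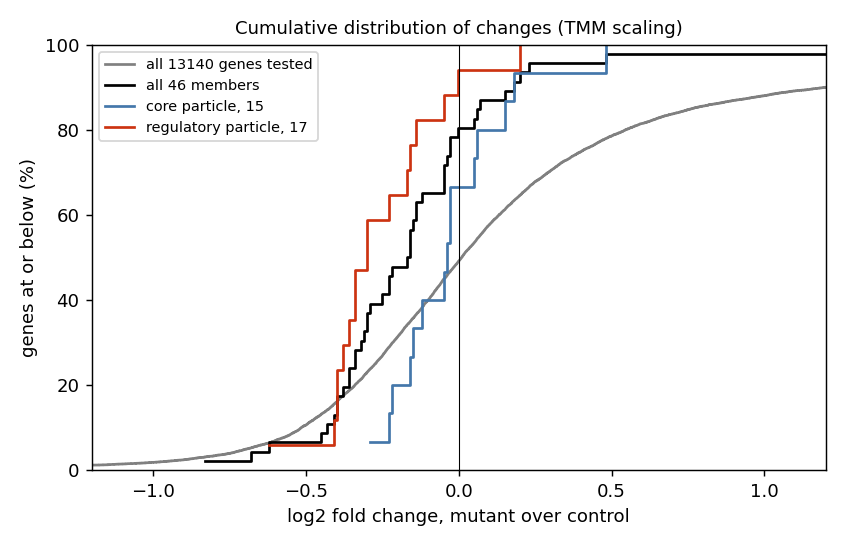
Cumulative share of genes (vertical axis, percent) at or below each log2 fold change of mutant over control (horizontal axis) under TMM scaling, for all 13140 genes tested, all 46 proteasome genes, the 15 core particle genes and the 17 regulatory particle genes. The curve of the regulatory particle lies to the left, with a median of -0.30, and that of the core particle rises close to 0, with a median of -0.04; Psmb8 lies outside the plotted range.

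The stretches upstream of the start sites of the genes with the largest rise and the largest falls, Psmb8, Psmd9 and Psmf1, are shown to place the motifs that were searched. They are the 250 bases before the RefSeq start in GRCm38.p6, a later build than the mm9 used for the counts, and are printed 5′ to 3′ on the gene's strand. Capitals mark a match, on either strand, to one of the motifs below.
Psmb8, chr17:34197945-34198194, plus strand: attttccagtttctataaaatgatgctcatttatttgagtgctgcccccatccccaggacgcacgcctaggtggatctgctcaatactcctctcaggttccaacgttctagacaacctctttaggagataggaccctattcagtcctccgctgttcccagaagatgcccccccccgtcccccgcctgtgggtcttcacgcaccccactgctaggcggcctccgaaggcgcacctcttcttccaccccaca
Psmd9, chr5:123227940-123228189, plus strand: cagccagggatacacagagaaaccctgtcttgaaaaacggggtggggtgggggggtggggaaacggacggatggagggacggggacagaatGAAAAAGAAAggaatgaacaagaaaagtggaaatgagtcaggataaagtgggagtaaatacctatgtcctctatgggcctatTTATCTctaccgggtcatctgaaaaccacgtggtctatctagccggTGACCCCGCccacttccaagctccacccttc
Psmf1, chr2:151741311-151741560, minus strand: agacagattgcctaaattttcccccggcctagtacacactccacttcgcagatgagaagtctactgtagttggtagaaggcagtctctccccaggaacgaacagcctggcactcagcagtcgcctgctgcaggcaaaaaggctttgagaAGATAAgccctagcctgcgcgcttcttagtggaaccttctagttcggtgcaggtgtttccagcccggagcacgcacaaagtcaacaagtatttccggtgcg

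The motifs were searched on both strands in the RefSeq windows from 250 bases before to 50 after the start, which were at hand for 38 of the 46 genes. The ETS core CCGGAAG was found in 14 of the 38 (36.8%), against 9.93% of 27025 genes with a window and 20.2% of the 8594 of them that were also tested. The site of nuclear respiratory factors was in 18.4% (5.19% and 11.9%), and the core of the interferon-stimulated response element in 13.2% (3.99% and 3.53%). The antioxidant response element core TGACNNNGC, bound by the factors encoded by Nfe2l1 and Nfe2l2, was in 15.8% (14% and 17.4%). The CCAAT box was in 31.6% (41.1% and 43.2%), and the GATA motif AGATAA in 7.89% (12.7% and 8.09%). The window of Psmb8 held none of the 6, which says only that these letters are not in this window. The ETS core stood upstream of genes of the regulatory particle that fell (Psmc1, Psmd2 and Psmd4) and of genes that rose (Psmc6 and the activator gene Psme4). The following 60-base stretches show it in capitals.
Psmc1, chr12:100110142-100110201, plus strand: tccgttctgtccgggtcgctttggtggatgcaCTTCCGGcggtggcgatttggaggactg
Psmd2, chr16:20651592-20651651, plus strand: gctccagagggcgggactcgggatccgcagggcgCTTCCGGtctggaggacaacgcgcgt
Psmd4, chr3:95042706-95042765, minus strand: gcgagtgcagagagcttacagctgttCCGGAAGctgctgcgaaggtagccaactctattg
Psmc6, chr14:45329698-45329757, plus strand: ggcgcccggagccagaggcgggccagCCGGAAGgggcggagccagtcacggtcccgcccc
Psme4, chr11:30771696-30771755, plus strand: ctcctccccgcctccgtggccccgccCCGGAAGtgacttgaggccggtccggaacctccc

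The regulatory particle carried most of the falls. Of its 17 genes, 14 were lower, 1 was higher and 2 did not pass, with a median of -0.30. These are 82.4% lower and 5.88% higher, against 29.2% and 28.3% of all genes. Under library totals alone 10 were lower and 2 higher (background 19.5% lower and 38.8% higher), with a median of -0.17. The ATPase ring of the base fell in 5 of its 6 genes. Psmc4 had 494 and 485 CPM in the control libraries and 363 and 374 CPM in the mutant libraries, the largest fall of the ring (log2 fold change -0.41 ± 0.04 SE, adjusted p = 3.23e-07). Psmc3, the most abundant of the ring, had 855 and 862 CPM in controls and 667 and 693 CPM in mutants (-0.34, adjusted p = 2.37e-06). In both genes the 2 groups were well apart and the libraries of a group close together. Psmc1 (-0.40) and Psmc5 (-0.30) fell as well, and Psmc2 by less (-0.17). Psmc6, which encodes another ATPase of the same ring, went the other way: 235 and 242 CPM in controls and 273 and 276 CPM in mutants (0.20 ± 0.04, adjusted p = 0.000866). It was called higher under each of the 14 alternatives tried, with log2 fold changes from 0.16 to 0.34.

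The 3 other base genes fell by like amounts. All 3 were called lower, against 29.2% of all genes, and also under library totals alone (background 19.5%). Psmd4 encodes a ubiquitin receptor and had 591 and 607 CPM in controls and 433 and 478 CPM in mutants (-0.40 ± 0.05, adjusted p = 2.27e-06). Psmd1 and Psmd2, the large scaffold subunits of the base, changed by -0.30 and -0.38. Adrm1, the other ubiquitin receptor of the base, which lies outside the naming rule, fell further, from 26.5 ± 5.47 to 15.6 ± 1.69 CPM (SD, n = 2; -0.76, adjusted p = 0.00221).

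In the lid, 6 of 8 genes fell (75%, against 29.2% of all genes). Under library totals alone 3 were lower and 1 higher (background 19.5% lower and 38.8% higher). Psmd3, a lid scaffold gene, had the steepest fall of the 17 regulatory particle genes under the naming rule: 814 and 815 CPM in the control libraries and 542 and 520 CPM in the mutant libraries (-0.62 ± 0.04, adjusted p = 1.67e-09). The control libraries were nearly identical, and the fitted change in the mutant was -34.8%. Psmd7 (-0.36), Psmd11 (-0.34), Psmd13 (-0.23), Psmd12 (-0.16) and Psmd8 (-0.14) followed. Psmd14, the deubiquitinase of the lid and the binding partner of Psmd7 protein, had 158 and 163 CPM in controls and 156 and 165 CPM in mutants, overlapping groups (-0.0025 ± 0.05). It was called higher under library totals alone (0.13, adjusted p = 0.0287). Psmd6 (-0.05 ± 0.04) did not pass, although its groups, 361 and 360 CPM in controls and 345 and 349 CPM in mutants, did not overlap. Among the lid and ATPase genes, 3 of the smaller falls lost their call when 1 library was left out: Psmc2 and Psmd12 without mutant replicate 1 (adjusted p = 0.0653 and 0.0788), and Psmd8 when either control replicate 1 or mutant replicate 2 was omitted (0.18 and 0.316).

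**Figure D2:**
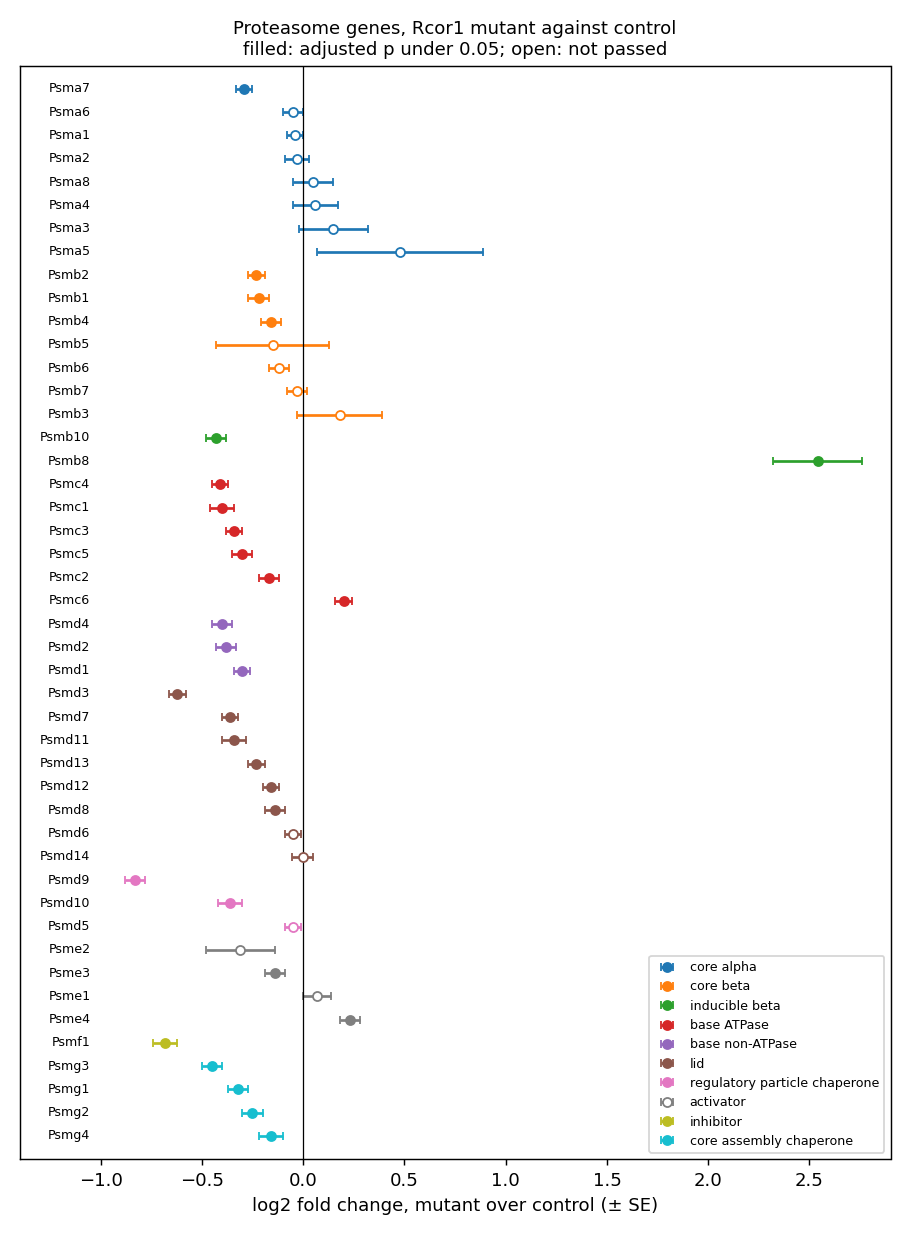
Log2 fold change of mutant over control (horizontal axis, bars are ± SE from edgeR's quasi-likelihood fit, n = 2 libraries a group) for each of the 46 proteasome genes, in rows grouped by role and sorted within a role. Filled points passed an adjusted p of 0.05 and open points did not; the ATPase, base and lid genes lie left of 0 except Psmc6 at 0.20, and Psmb8 stands alone at 2.54.

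The core particle changed less. Of 8 alpha genes 1 fell, and of 7 constitutive beta genes 3 fell. The remaining 11 did not pass and none rose. The share lower was 26.7%, near the 29.2% of all genes, while 28.3% of all genes were higher. Among the 9 core genes with a mean of 500 or more counts, 44.4% were lower. The median of the 15 was -0.04. Under library totals alone it was 0.10, and 1 gene was lower (background 19.5% lower and 38.8% higher). Psma7 was the alpha gene that fell, from 717 and 682 CPM in controls to 563 and 578 CPM in mutants (-0.29 ± 0.04, adjusted p = 1.68e-05). Psmb2 had 424 and 424 CPM in controls and 364 and 361 CPM in mutants (-0.23 ± 0.04, adjusted p = 0.000193). Psmb1 (-0.22) and Psmb4 (-0.16) fell too. The call of Psmb4 was lost when control replicate 1 (adjusted p = 0.24), mutant replicate 1 (0.064) or mutant replicate 2 (0.0882) was omitted. Psma1 (-0.04 ± 0.04), Psma2 (-0.03 ± 0.06), Psma6 (-0.05 ± 0.05) and Psmb7 (-0.03 ± 0.05) had narrow errors around values close to 0. Psmb6, with 190 and 176 CPM in controls and 165 and 172 CPM in mutants, narrowly missed the threshold (-0.12 ± 0.05, adjusted p = 0.0514), and passed without control replicate 2 (-0.19, adjusted p = 0.0035), under RLE scaling (-0.13, 0.0421) and with no filter beyond 1 count (-0.16, 0.00453).

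A ratio of counts within a library does not depend on scaling. The 17 regulatory particle genes together had 2.05 and 2.12 counts per core particle count in the control libraries, and 1.9 in each of the mutant libraries. The mutant libraries lay below both controls (mean 1.9 ± 0.000262 against 2.09 ± 0.0547, SD, n = 2). This ratio was chosen after the values of the single genes were seen, and with 2 libraries a group the smallest p that an exact two-sided permutation can give is 0.33, so it is given as a description. It weights genes by their counts and does not give the ratio of the particles.

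Several core genes had far fewer counts than others of the same ring, although the rings hold their subunits in equal number. Psma3, Psma4, Psma5, Psmb3 and Psmb5 each had a mean under 500 counts per library, as did Psme2 and Psmb8. So did Psma8, an alpha gene known from male germ cells, to which the equal number need not apply. To compare levels between genes, CPM was divided by the length of the principal GENCODE M21 transcript. Control levels were 0.406 CPM per kb for Psma5, 1.5 for Psma3, 1.67 for Psmb5, 3.92 for Psmb3 and 16.6 for Psma4, against 335 for Psma1, 765 for Psma7 and 622 for Psmb4. Each principal transcript was then cut into all windows of 36 bases and aligned to all GENCODE M21 transcripts with up to 2 mismatches. In Psmb5, 88.3% of windows also matched a transcript from another locus, almost all of them annotated pseudogenes (88.2%). The share was 80.6% in Psmb3, 74.5% in Psma5, 62.5% in Psma4 and 36.5% in Psma3. It was 0.257% in Psma1, 0.228% in Psma7 and 0% in Psmb2 and Psmb4. In the regulatory particle the genes with most shared sequence, Psmd2 (83.7%), Psmc1 (74.9%) and Psmd11 (49.9%), had 56.9, 45.9 and 29.7 CPM per kb, the lowest levels of the 17.

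Across the 46 genes, Spearman's rho between the shared percentage and the control level per kb was -0.52; the points share their libraries and this is a description. The median level was 11 CPM per kb in the 8 genes with at least 50% of windows shared and 241 CPM per kb in the 29 with under 10%. Exceptions included Psmb6 (53.7% shared, 229 CPM per kb) and, at 0% shared, the germ cell gene Psma8 (8.98 CPM per kb) and Psmb8. The sources used here do not state how reads with several matches were counted, and whether they lowered these levels was not tested. Fold changes of these scarce genes are imprecise: 0.48 ± 0.41 for Psma5, 0.18 ± 0.21 for Psmb3, 0.15 ± 0.17 for Psma3, 0.06 ± 0.11 for Psma4, 0.05 ± 0.10 for Psma8 and -0.15 ± 0.28 for Psmb5. None passed. At these counts a change of the size seen in the regulatory particle was not detectable in Psma5 or Psmb5. Such a change was also unlikely to pass in Psma3 or Psmb3, since Psme2, at -0.31 ± 0.17, did not pass. Among the 9 core genes with a mean of 500 or more counts, 4 fell and 5 did not pass, with a median of -0.12.

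**Figure D3:**
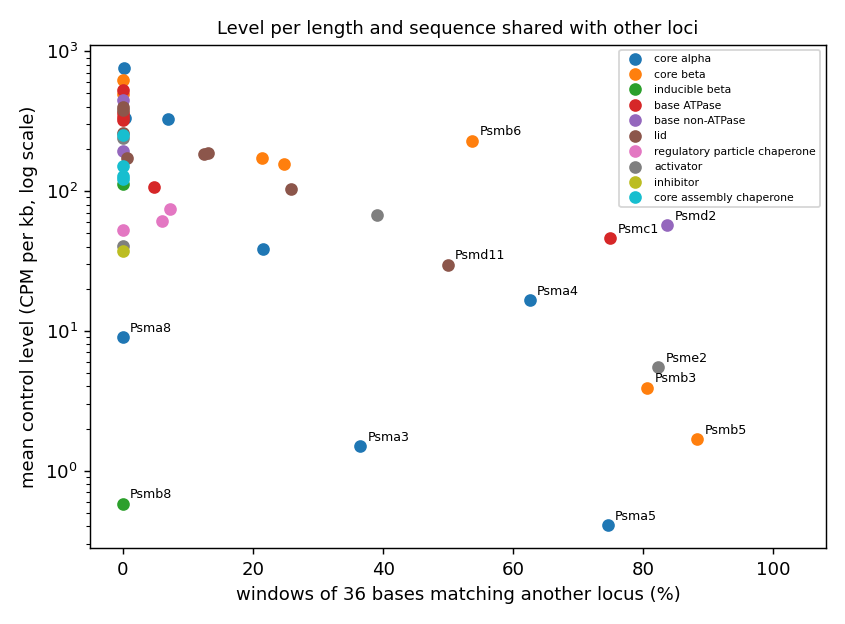
Mean control level in CPM per kb of principal transcript (vertical log axis) against the percentage of 36-base windows that also match another locus (horizontal axis), 1 point per proteasome gene, coloured by role. Psma5, Psmb5, Psmb3 and Psme2 combine at least 74.5% shared windows with levels of at most 5.49 CPM per kb, while Psmb8 and Psma8 are scarce at 0% shared.

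The inducible catalytic genes moved in opposite directions. Psmb8, whose product replaces that of Psmb5, was counted 27 and 18 times in the controls against 152 and 83 times in the mutants, or 1.06 and 0.825 CPM against 5.74 and 5.28 CPM. Both mutant libraries were about equal and far above both controls, a 5.82-fold rise (log2 fold change 2.54 ± 0.22, adjusted p = 3.24e-08). It was called higher under all 14 alternatives, with values from 2.37 to 2.73. Psmb10, which replaces Psmb7, had 151 and 144 CPM in controls and 109 and 109 CPM in mutants, a decrease without overlap (-0.43 ± 0.05, adjusted p = 1.5e-06; from -0.48 to -0.29 over the alternatives). Their levels were of very different size: per kb of transcript, Psmb8 went from 0.579 to 3.38 CPM and Psmb10 from 113 to 83.1 CPM, and the transcripts of both had no shared windows. Psmb8 thus stayed scarce beside Psmb10 in the mutant.

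Set against the constitutive partner in the same library, Psmb8 counts were 0.628 and 0.621 times those of Psmb5 in controls (exact 95% intervals 0.373 to 1.04 and 0.325 to 1.16) and 3.71 and 4.88 times in mutants (2.61 to 5.37 and 2.87 to 8.78). These intervals cover counting error only, and replicates varied by more than that; both mutant ratios lay above both control ratios. Psmb5 itself was scarce, with 43 and 29 counts for controls against 41 and 17 for mutants, and most of its sequence is shared with pseudogenes, so only the change in this ratio, not its size, can be read. Psmb10 counts were 0.749 and 0.721 times those of Psmb7 in controls and 0.576 and 0.541 times in mutants. On the log2 scale the mutant libraries differed from controls by 2.77 for the former pair and by -0.40 for the latter. Psmb6, the constitutive partner of Psmb9, is described above.

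**Figure D4:**
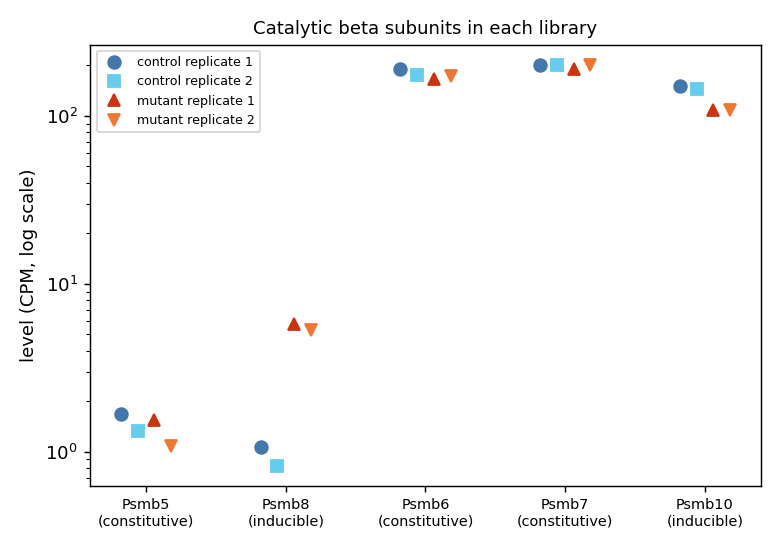
Level in CPM (vertical log axis) of the constitutive catalytic genes Psmb5, Psmb6 and Psmb7 and the inducible genes Psmb8 and Psmb10 in each of the 4 libraries. Psmb8 lies at 1.06 and 0.825 CPM in the controls and at 5.74 and 5.28 CPM in the mutants, while Psmb10 drops from 151 and 144 CPM to 109 CPM in each mutant library.

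Psmb8 lies in the MHC region between Tap1 and Tap2, which encode the peptide transporter of antigen presentation, and of its neighbours that could be tested 2 rose and 1 did not pass. Counts of Tap1 were 110 and 105 for controls against 270 and 154 for mutants (1.14 ± 0.14, adjusted p = 2.11e-06). Those of Tap2 were 378 and 338 against 366 and 207, and it did not pass (-0.16 ± 0.10). H2-Ab1, an MHC class II gene 3 genes from Psmb8 on the Tap2 side, rose from 132 and 94 counts to 242 and 168 (1.04 ± 0.15, adjusted p = 1.19e-05). Of the 4 genes on either side, the others with a row in the table were too scarce to test. Of the 7 genes listed for immunoproteasome induction and peptide loading, 4 were higher and 1 lower. Of all genes, 28.3% were higher and 29.2% lower. Besides Tap1, the rises included those of B2m, the light chain of MHC class I (99.8 ± 7.03 to 166 ± 4.28 CPM, 0.73), and of the interferon-regulated factor gene Irf1 (27 and 15 counts against 54 and 34, 1.24). Tapbp, which couples the transporter to MHC class I, fell (-0.43). Nlrc5, with 1 count in all controls and 4 in all mutants, was too scarce to test.

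Immunoproteasome genes are abundant in immune cells, and markers of other cells the gate could hold were measured beside them. The 10 macrophage markers summed to 22.5 to 23 CPM in controls and 25.1 to 25.3 CPM in mutants; of 9 tested, 2 were higher (Csf1r and Emr1) and 2 lower (Marco and Cd5l). The 8 granulocyte markers summed to 47.2 to 52.3 CPM in controls and 81.5 to 82.2 CPM in mutants, with 2 higher and 1 lower. Most of each sum was Mpo and Prtn3, the 2 called higher. Mpo went from a mean of 29.7 CPM in controls to 49.1 CPM in mutants, and Prtn3 from 10.5 to 25.7 CPM. Elane was lower (2.95 to 1.57 CPM), and the other granulocyte markers did not pass. The 7 lymphoid markers summed to 0.586 to 0.733 CPM in controls and 4.2 to 5.02 CPM in mutants, most of it Cd79b, while Cd3e and Cd79a had at most 2 counts in any library and Cd3e and Il7r were at 0 in both controls. Endothelial markers went from 11.6 to 12.4 CPM in controls to 30.1 to 30.2 CPM in mutants (4 of 7 higher), megakaryocyte markers from 64.1 to 69.8 CPM to 182 to 191 CPM (4 of 5 higher), mesenchymal markers from 6.92 to 7.33 CPM to 21.9 to 23.8 CPM (7 of 7) and hepatoblast markers from 966 to 982 CPM to 1330 CPM (7 of 10). Beside these counts, 28.3% of all genes were higher and 29.2% lower. The part of such cells in the changes of Psmb8 and Tap1 was not tested.

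Genes for assembly and control of the particle held the steepest falls. Psmd9, a chaperone of the base, had 159 CPM in each control library and 89.4 and 89.2 CPM in the mutant libraries (-0.83 ± 0.05, adjusted p = 3.84e-10), the largest decrease of the 46. The libraries of a group were almost identical. Psmd10, the base chaperone known as gankyrin, fell from 73.5 and 76.2 CPM to 56.9 and 59.6 CPM (-0.36), and Psmd5, the remaining base chaperone, did not pass (-0.05 ± 0.04). Psmf1, which encodes an inhibitor that binds the core particle in vitro, had 147 and 135 CPM in controls and 90.1 and 85.9 CPM in mutants (-0.68 ± 0.06, adjusted p = 2.22e-08). Psmd9, Psmf1 and Psmd3 were called lower under all 14 alternatives, from -0.87 to -0.69, from -0.75 to -0.54 and from -0.66 to -0.48.

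All 4 chaperones that build the alpha ring were lower, against 29.2% of all genes. Psmg3 had 233 and 213 CPM in controls and 169 and 158 CPM in mutants (-0.45 ± 0.05, adjusted p = 1.91e-06). Psmg1 (-0.32) and its partner Psmg2 (-0.25) also fell, as did Psmg4 by less (-0.16, adjusted p = 0.0468). The call of Psmg4 was lost under 9 of 14 alternatives, 3 of which each omitted 1 library (adjusted p = 0.127 for control replicate 1, 0.0959 for mutant replicate 1 and 0.212 for mutant replicate 2). Under library totals alone, 2 of the 4, Psmg1 and Psmg3, were still called lower (background 19.5%). Pomp, the maturation factor of the beta rings, did not pass (191 ± 5.42 against 182 ± 0.638 CPM, SD, n = 2; -0.07).

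The activators were mixed. Psme4, a nuclear activator of large size, rose from 253 and 270 CPM in controls to 315 and 299 CPM in mutants (0.23 ± 0.05, adjusted p = 0.000568), and kept that call under all 14 alternatives. Psme3, the nuclear member of the other activator family, fell slightly (644 and 641 against 607 and 557 CPM, -0.14 ± 0.05, adjusted p = 0.0138). That call was lost under upper quartile scaling (-0.07, adjusted p = 0.234), under library totals alone (-0.0056) and without mutant replicate 2 (-0.08). Psme1 and Psme2, the interferon-inducible pair, did not pass. Psme1 had 77.9 and 71 CPM in controls and 74.9 and 82 CPM in mutants (0.07 ± 0.07). Psme2 had 5.98 and 4.58 CPM in controls and 4.08 and 4.58 CPM in mutants (-0.31 ± 0.17) and passed without control replicate 2 (-0.50, adjusted p = 0.019). In the authors' deposited table Psme1 was among the 4 rises (0.21, FDR 0.0218), with Psmb8 (2.69), Psme4 (0.36) and Psmc6 (0.34).

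**Figure D5:**
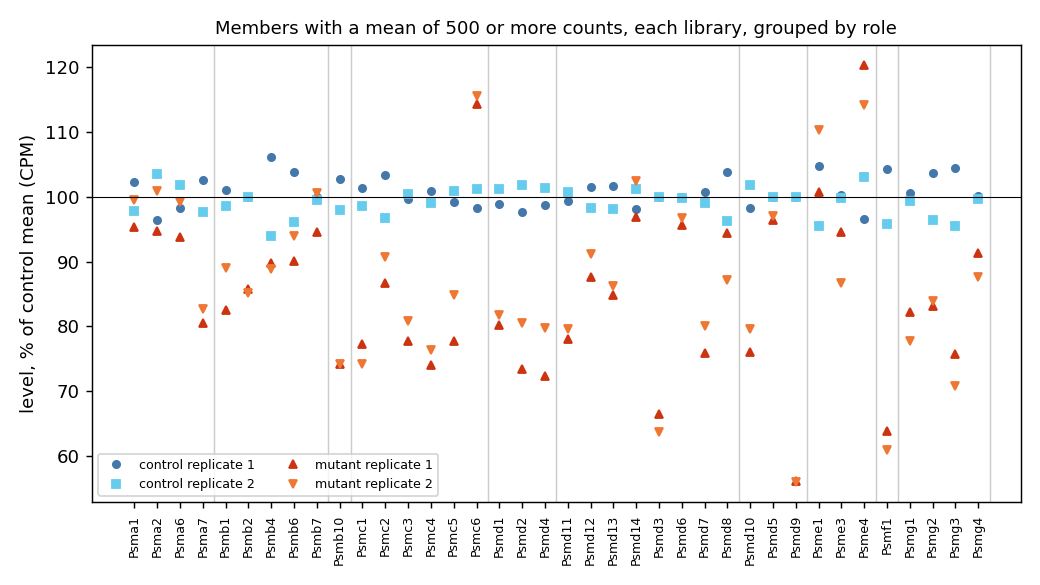
Level of each proteasome gene with a mean of 500 or more counts in each library, as a percentage of the control mean (vertical axis), in columns grouped by role. The mutant libraries lie lowest for Psmd9, Psmf1 and Psmd3 (fitted changes of -43.7%, -37.4% and -34.8%) and above the controls for Psmc6 and Psme4 (15.1% and 17.2%).

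Other genes that work with the proteasome were mixed. Of the 26 such genes found by symbol and tested, 10 were lower, 2 were higher and 14 did not pass, with a median of -0.09. These are 38.5% lower and 7.69% higher, against 29.2% and 28.3% of all genes. The rises were those of Usp14, a deubiquitinase that binds the base (280 ± 9.98 to 360 ± 2.01 CPM, SD, n = 2; 0.36, adjusted p = 2.79e-06), and of AI314180, a proteasome adaptor (0.15), whose call was lost without control replicate 1 (adjusted p = 0.0577). Besides Adrm1, the larger falls included that of Ddi2 (78.8 ± 2.03 to 53.7 ± 5.67 CPM, -0.56), the protease that releases the transcription factor encoded by Nfe2l1. Nfe2l1, which drives proteasome genes when the particle is inhibited, fell from 129 ± 1.36 to 105 ± 3.23 CPM (-0.30, adjusted p = 9.93e-05). Nfe2l2, its relative in the antioxidant response, fell by as much (163 ± 1.47 to 132 ± 2.02 CPM, -0.30). The ubiquitin-activating enzyme gene Uba1 changed by -0.23. Ubb, a polyubiquitin gene, did not pass (0.81 ± 0.26, adjusted p = 0.0504) but was called higher under 11 of the 14 alternatives, and its mutant libraries were far apart, with 549 and 213 counts.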

How the data were processed

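Messenger RNA was sequenced in 2 control and 2 Rcor1 mutant libraries. The submitters' processing notes name mm9 and the tools Bowtie, edgeR and FastQC; their versions, the strand setting and the handling of reads with several matches are not given in the sources used here. The authors deposited whole-number counts per gene and, per the file headers, a table of their own log2 fold changes with p-values and FDR. The count columns named WT were taken as the controls, matched by replicate number; no label states this outright.

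Of 35939 rows, 12 with NA were left out. Counts were filtered with filterByExpr (13140 genes), scaled with TMM (factors 0.952 to 1.05) and tested two-sided with edgeR 4.0.16 (glmQLFit robust, glmQLFTest) in R 4.3.3, with Benjamini-Hochberg adjustment over all genes; the SE was obtained by dividing the size of the log2 fold change by the root of the F statistic. The dispersion common to all genes was 0.00232 (4.81% biological variation). Replicates differed by more than counting noise (chi-square per gene 5.76 and 3.67). The fit was tested on simulated data. It recovered 19 of 67 changes of 1.2-fold, 48 of 66 of 1.5-fold and 58 of 64 of 2-fold. It also called 8 unchanged genes. Changes of 1.2-fold were thus mostly missed in the simulated data. Among the proteasome genes this depended on counts. Psmb2 (0.855-fold, adjusted p = 0.000193) and Psmc6 (1.15-fold, adjusted p = 0.000866), which are abundant, were called. The scarce Psme2 (0.806-fold) was not. Windows of 36 bases were aligned with bwa 0.7.19 to GENCODE M21 transcripts, and matches to genes that overlap the same locus were set aside; windows of 50 bases were also run. Promoters are from RefSeq, GRCm38.p6.

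The genes, lists and tests were chosen with earlier results of these data known. By rule, the catalytic subunits, the largest called rise and fall of each role, every proteasome gene that did not pass, the 3 largest called rises and falls of the other listed genes, Nfe2l1 and Nfe2l2 are named; others were chosen after their values were seen, and some listed genes are not reported here by name. Alternatives were RLE, upper quartile and total scaling, 2 other filters, limma-voom (limma 3.58.1), DESeq2 1.42.0, the exact test of edgeR, a fit that was not robust, a replicate block, and omission of each library in turn.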

Additional observations from a re-analysis of the deposited data

How the results depend on the processing

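Of the 46 proteasome genes, 32 kept their call and its direction, or stayed without a call, under all 14 alternatives (13 for Psma5), 10 lost a call under at least 1, 3 gained one, and 1 (Psmd14) went from -0.0025 to a called 0.13 under library totals alone. With library totals alone the 27 falls became 17 and the 3 rises 5. The median of -0.17 was -0.03 under library totals alone, -0.09 under upper quartile scaling, -0.21 with no filter beyond 1 count, from -0.25 to -0.15 with each library left out in turn, and -0.23 over the genes with a mean of 500 or more counts, an alternative added after the data were seen. Over the other listed genes, those for induction and peptide loading included, the median of -0.08 became 0.05 under library totals alone. The share of counts changed by -0.0841 percentage points for all proteasome genes and by -0.00445 for the core particle alone. The planned ratio of Psmb9 to Psmb6 was not run.

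The titles number the libraries 1 and 2 in each group, without saying that a number marks a shared batch. Deviations of same-numbered libraries had a correlation of 0.34 over 10006 genes. With the replicate number as a block, 28 proteasome genes were lower and 3 higher, against 27 and 3, the added call being that of Psmb6 (adjusted p = 0.00402); of all genes, 4267 were lower and 4135 higher, against 3835 and 3723. With each library left out, the group with a single library is assumed to vary like the other. Depth limits the genes under 500 counts, such as Psma5 and Psmb5.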
